A study of Mus musculus with 6 samples.

Results

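A set of 10 genes of the cytoskeleton and of clathrin coats were examined for alternative splicing in mouse hepatocytes after a high-fat (HFD) or a low-fat diet (LFD): Kif21a, Tubb2a, Macf1, Dstn, Tpm1, Tpm3, Tpm4, Myl6, Clta and Cltb. They are 10 genes chosen by name with their measured splicing values already known, so their differences between diets are a description and carry no test here. A local splicing variation (LSV) is a reference exon together with every junction on 1 side of it, retained introns included. Of the 10 genes, 8 had at least 1 LSV quantified for both diets, out of 5978 such genes in the series, and these 8 held 42 of 26910 LSVs.

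The mice were male C57BL/6J. All were raised to 8 weeks of age on chow (13.5% fat) and were then kept for 12 weeks on LFD (10% fat) or HFD (60% fat). Hepatocytes were taken from the livers, and 3 stranded mRNA libraries per diet were sequenced as paired ends. The values used here are pooled per diet or come from the authors' own comparison, so no spread between animals could be given, and depth per library is unknown. The tables hold no expression level.

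Kinesins carry cargo along microtubules, which are built from alpha- and beta-tubulin, and plakins such as MACF1 tie microtubules to actin filaments. Tropomyosins lie along actin filaments. Tpm1 and Tpm3 each make several proteins by choosing among alternative first exons, a pair of mutually exclusive internal exons and alternative last exons. Clathrin light chains bind the clathrin heavy chain of coated pits, and their genes carry short exons known mainly from neurons. In hepatocytes these systems serve endocytosis, vesicle traffic and the bile canaliculus.

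The exons on which the results turn are printed here, 5′ to 3′ on the strand of the gene, from GENCODE M21 transcripts on mm10. The first set shows exons whose use differed most between the diets, and the capitals mark the 3 bases at each end, next to the splice sites. The 129-bp exon of Kif21a lies at chr15:90951246-90951374 on the minus strand, and the 18-bp exon of Macf1 at chr4:123364057-123364074 on the minus strand. Both are wholly coding in the annotated coding transcripts that hold them.
Kif21a 129-bp exon: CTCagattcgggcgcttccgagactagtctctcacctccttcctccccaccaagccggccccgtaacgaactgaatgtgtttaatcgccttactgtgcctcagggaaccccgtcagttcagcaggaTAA
Macf1 18-bp exon: TTCttcctcggcaatCAG

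The second set shows the mutually exclusive tropomyosin exons, of 76 bp each. Both alternatives were clearly in use in Tpm1, while the second exon of the Tpm3 pair was little used, as given below. Capitals mark the bases that differ between 6a and 6b of the same gene. Tpm1 exon 6a lies at chr9:67032466-67032541 and exon 6b at chr9:67031951-67032026, on the minus strand. Tpm3 exon 6a lies at chr3:90088401-90088476 and exon 6b at chr3:90089048-90089123, on the plus strand.
Tpm1 exon 6a: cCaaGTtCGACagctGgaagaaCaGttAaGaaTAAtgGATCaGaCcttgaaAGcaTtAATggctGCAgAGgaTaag
Tpm1 exon 6b: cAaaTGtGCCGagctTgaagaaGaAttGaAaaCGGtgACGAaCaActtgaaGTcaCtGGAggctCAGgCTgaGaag
Tpm3 exon 6a: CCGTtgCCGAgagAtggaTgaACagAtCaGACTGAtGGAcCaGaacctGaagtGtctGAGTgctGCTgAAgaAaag
Tpm3 exon 6b: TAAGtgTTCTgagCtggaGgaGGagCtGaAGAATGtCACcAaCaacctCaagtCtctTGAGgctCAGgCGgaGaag
Exons 6a and 6b were identical at 43 of 76 positions in Tpm1 (56.6%) and at 39 in Tpm3 (51.3%). Across the genes, the 6a exons shared 50 positions (65.8%) and the 6b exons 57 (75.0%). In sequence, each exon was thus closer to its counterpart in the other gene than to its alternative in the same gene.

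The third set shows the 54-bp exons of the clathrin light chain genes, which hepatocytes skipped on both diets. Capitals mark the bases that Clta and Cltb share at the same position, 37 of 54 (68.5%). The exon of Clta lies at chr4:44030215-44030268 on the plus strand and that of Cltb at chr13:54597026-54597079 on the minus strand.
Clta 54-bp exon: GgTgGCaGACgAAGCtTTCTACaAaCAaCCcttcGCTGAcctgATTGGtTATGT
Cltb 54-bp exon: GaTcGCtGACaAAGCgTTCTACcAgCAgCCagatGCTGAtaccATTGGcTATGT

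Of 25 annotated internal exons of coding transcripts that a quantified junction of these genes skips, 23 were fully coding. None of those 23 held an in-frame stop, which already follows from their being annotated as coding. A length divisible by 3 was found for 15 of the 23.

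PSI is the fraction of an LSV's reads that use a junction, from 0 to 1. Each PSI below is the authors' posterior mean for a diet, and the value after ± is the posterior standard deviation, which covers reads in the pooled libraries and not animals. Among LSVs matched between diets, no PSI on LFD was under 0.0125 or over 0.9875. A value at 0.0125 was therefore read as the lowest that the PSI tables hold. The authors' own comparison of the diets, given below, lists lower values. A junction was counted as different when its PSI difference reached 0.2 and lay outside the 95% normal interval around 0 that the summed posterior variances give. This rule was passed by 2 of 117 junctions of the 10 genes, both in 1 of 42 LSVs, and both belong to Kif21a. Over all genes it was passed by 0.417% of junctions, 0.624% of LSVs and 2.31% of genes with an LSV for both diets. With a minimum difference of 0.1 in place of 0.2, a Macf1 LSV was added, giving 2 of 42 LSVs, against 4.17% of all LSVs. The genes were chosen with these differences known, so the shares are given side by side only.

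**Figure D1:**
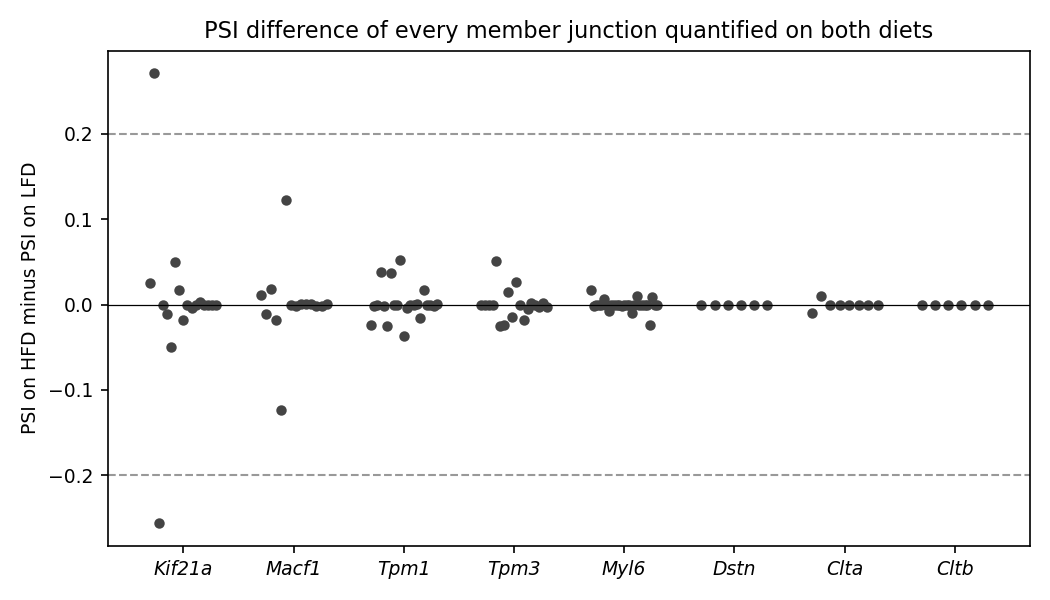
PSI on HFD minus PSI on LFD for each of 117 junctions and introns of the 8 genes quantified on both diets, 1 point per junction, spread sideways for legibility, with dashed lines at a difference of 0.2 in either direction. A rise of 1 junction brings falls of others in the same LSV, so the points of an LSV are not independent. Kif21a reaches 0.271 and -0.256, Macf1 lies at -0.123 and 0.122, and all points of Dstn and Cltb lie at 0.

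The LSVs of the 8 genes were set beside those of all genes. In 34 of 42 LSVs (81.0%) 1 junction held a PSI of at least 0.9 on both diets, against 80.0% of all LSVs. The leading junction was the same on both diets in all 42 LSVs, against 99.1% of all LSVs. A retained intron was an entry of 7 of the 42 (16.7%), against 25.5%. The largest absolute PSI difference of an LSV had a median of 0.00208, against 0.00681 over all LSVs. At the 12 junctions with a PSI from 0.1 to 0.9 on both diets, the median absolute difference was 0.0311, against 0.0362 over 7126 such junctions. The median posterior SD at those 12 was 0.036 on LFD and 0.0463 on HFD, against 0.0286 and 0.0321. An effective read number, PSI × (1 − PSI) / variance − 1, had a median of 165 on LFD and 99 on HFD at the 12 junctions, against 220 and 169. At these junctions the values were thus less precise than over all genes, and HFD values less precise than LFD values.

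Among the microtubule genes, Kif21a showed the largest difference. It encodes a kinesin that walks to the plus ends of microtubules and limits their growth. The gene lies on chromosome 15 from 90933276 to 91049948, minus strand. The LSV that passed the rule is made of all junctions entering the exon 90943765 to 90943901. The junction that joins the 129-bp exon to that downstream exon had a PSI of 0.269 ± 0.0327 for LFD against 0.0129 ± 0.00366 for HFD, a difference of -0.256. On HFD that value sat near the lowest that the PSI tables hold. The junction that skips the exon, 90943901 to 90952711, had a PSI of 0.587 ± 0.0365 for LFD against 0.859 ± 0.0421 for HFD, a difference of 0.271. It joins a pair of annotated exons, although GENCODE M21 lists no transcript with this junction. A longer junction, which also leaves out the 108-bp exon before it, stood at 0.108 ± 0.0227 and 0.133 ± 0.041, a difference within 1 posterior SD. The remaining entries of the LSV come from exons that lie between the 129-bp exon and the reference exon, at 0.0139 and 0.0237 on LFD and 0.0129 on HFD.

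The authors' deposited table of differences (dPSI) lists 1 LSV of the 10 genes, this one, among 0.360% of the LSVs quantified for both diets. In the authors' deposited table the exon junction went from 0.271 to 0.003 and the skipping junction from 0.591 to 0.859. JUM, a program with other event definitions, gave inclusion of the exon a change of -0.163 (adjusted p = 0.012, the authors' deposited table). Of the cassette exons listed by JUM, 7.79% had an adjusted p under 0.05 (the authors' deposited table). Both programs read the same libraries, so they are not independent of each other.

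The other end of the same exon gave a different reading. In the LSV leaving the upstream exon 90952711 to 90952818, the junction into the 129-bp exon had a PSI of 0.264 ± 0.036 for LFD against 0.214 ± 0.0477 for HFD, a difference of -0.0499. In that LSV the skipping junction stood at 0.736 and 0.786, so the same junction differed by 0.0499 from 1 side and by 0.271 from the other. A PSI from either side describes the same transcripts only where the exon's ends have no other partners. To put the ends on 1 scale, inclusion was taken as the exon junction's share of the exon and skipping junctions together. At the upstream end inclusion was 0.264 on LFD and 0.214 on HFD. At the downstream end it was 0.314 on LFD and 0.0148 on HFD. The ends lay 0.0497 apart on LFD and 0.199 apart on HFD, and their changes differed by 0.249. The mean of both changes was -0.174, beside the JUM change of -0.163 for this exon in the authors' deposited table.

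**Figure D2:**
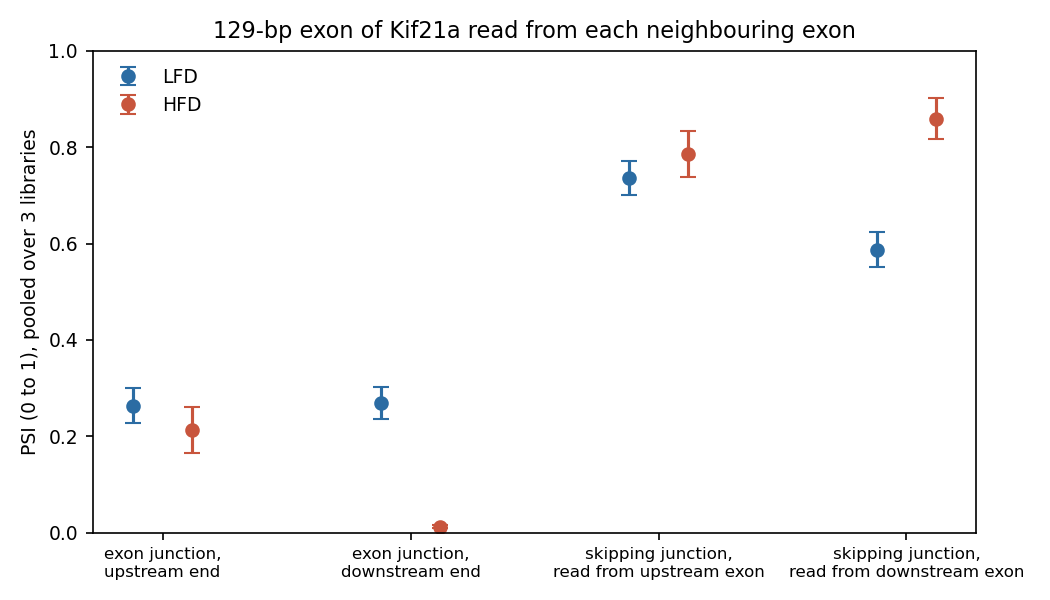
PSI of the junctions that include or skip the 129-bp exon of Kif21a, read in the LSV of the upstream exon and in that of the downstream exon, with posterior SD, for LFD (blue) and HFD (red), each pooled over 3 libraries. The diets overlap at the upstream end (0.264 and 0.214 for the exon junction) and stand apart at the downstream end (0.269 and 0.0129).

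The ends of exons were then compared over all genes, a comparison added after the values of Kif21a were seen. It covered 4945 annotated exons of all genes whose inclusion could be read from both ends, with the exon and skipping junctions holding at least 0.5 of each LSV. The changes at both ends differed by a median of 0.00171, and by at least 0.2 in 12 exons (0.243%). Among the 688 exons with a mean inclusion from 0.1 to 0.9 on LFD the median was 0.027, and 10 (1.45%) differed by at least 0.2. Kif21a is 1 of those 10. The level on a single diet differed between ends more often: on HFD the ends lay at least 0.1 apart in 24.4% of the 688 exons and at least 0.2 apart in 10.8%. The Kif21a gap of 0.199 on HFD was thus of a size found in many exons, while so large a difference between the changes was found in few. The effective read numbers behind its ends were 149 to 186 on LFD and 67 to 73 on HFD at the junctions of intermediate PSI. The part of read number in the gap was not tested.

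Kif21a has further short exons, and hepatocytes left most of them out on both diets. The 39-bp exon 90949006 to 90949044 had a PSI of 0.0139 for LFD against 0.0129 for HFD for its junction into the downstream exon. A 21-bp exon, 90964975 to 90964995, stood at 0.043 ± 0.0171 and 0.0252 ± 0.0158 at its downstream end and at 0.0287 and 0.0251 at its upstream end. Another 21-bp exon, 90959852 to 90959872, and the 39-bp exon 90976471 to 90976509 were within 0.001 of the lowest value on both diets. The 129-bp exon was the only cassette exon of Kif21a quantified on both diets with a difference past the rule.

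Macf1, on chromosome 4 from 123349633 to 123684360, minus strand, encodes a very large plakin that crosslinks actin and microtubules. Its widest difference lay at the 18-bp exon. The junction into that exon from the upstream exon had a PSI of 0.935 ± 0.0233 for LFD against 0.812 ± 0.0412 for HFD, a difference of -0.123. The skipping junction stood at 0.0623 ± 0.0229 on LFD and 0.184 ± 0.0409 on HFD. The exon was thus used in most transcripts on either diet, with a skipping share that was higher on HFD by 0.122, or 2.6 posterior SDs of the difference. The other end of the exon was quantified on LFD alone, at 0.935 ± 0.0231, so the difference could be read from 1 side only. Macf1 is in neither the dPSI nor the JUM table.

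A 102-bp cassette exon of Macf1, 123354479 to 123354580, was included at an intermediate level on both diets. Its PSI was 0.624 ± 0.0458 on LFD and 0.642 ± 0.0481 on HFD at the upstream end, and 0.652 ± 0.0435 and 0.641 ± 0.0477 at the downstream end. The 4 values lay within 1 posterior SD of one another, unlike those of the Kif21a exon. A short exon of Macf1 annotated with alternative lengths of 12 and 15 bp, 123368821 to 123368832 or 123368835, was near the lowest value, at 0.0126 and 0.0138 at its downstream end. A 14-bp exon, 123361454 to 123361467, stood at 0.0127 and 0.0129 at its upstream end.

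Tubb2a, on chromosome 13 from 34074274 to 34078007, minus strand, encodes a beta-tubulin and had no LSV in either PSI table. Its entries come from JUM, which listed 2 retained introns and no alternative exon. Intron 3 of 3, 34075529 to 34076177, is 649 bp long and differed by 0.131 (adjusted p = 7e-05, the authors' deposited table). Intron 2, 34076289 to 34076548, is 260 bp long and differed by 0.151 (adjusted p = 0.00076, the authors' deposited table). Both introns were thus listed as more retained on HFD. Tubb2b is a closely related neighbouring gene, so reads may have been shared and the Tubb2a values are uncertain. Sharing of reads was not tested.

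The actin genes open with Dstn, which encodes destrin, a protein that severs and depolymerizes actin filaments. Dstn lies on chromosome 2 from 143915320 to 143943324, plus strand. JUM listed its intron 2 of 3, 143938693 to 143939951, which is 1259 bp long, as higher on HFD by 0.128 (adjusted p = 1.4e-06, the authors' deposited table). The PSI tables hold 3 LSVs of Dstn, and in all 3 the leading junction stood at 0.987 or 0.988 on both diets. An unannotated exon between the sites 143926778 and 143926971 stood at 0.0125 on both diets from both sides. None of the 3 LSVs has a retained intron as an entry, and this includes the LSV that leaves the exon before intron 2. The PSI tables thus do not repeat the JUM change and hold no value for retention of that intron. The spliced junction of that intron was at 0.988 on both diets, beside an alternative 5′ splice site in the same exon at 0.0125.

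The coding bases that these introns separate are shown, without codon boundaries. In each line the 15 bases of the upstream exon are in lower case and the 15 bases of the downstream exon in capitals, so the intron lies where the case changes.
Dstn intron 2: gatgttcttcctgtgGGCACCAGAACAAGC
Tubb2a intron 2: acaatgaagctgctgGCAACAAATATGTAC
Tubb2a intron 3: acaactttgtgttcgGCCAGAGTGGTGCAG
All 3 introns interrupt coding sequence on both sides in the annotation.

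The 3 introns were set beside the other introns that JUM listed at a p under 0.05. Of all listed JUM events, 17.7% passed the adjusted p, and of the retained introns 35.6% passed it with a higher value on HFD. All 4 listed events of the 10 genes passed it, the Kif21a exon and these 3 introns, a count that the choice of genes used. The authors' deposited table held 118 such introns, of which 98 were higher on HFD, with a median change of 0.0995 over all 118. Past the adjusted p, 42 of 43 were higher, with a median of 0.148 in the authors' deposited table. The introns of Tubb2a ranked 21 and 24 among those 43 by size of change and that of Dstn ranked 26. Their size was therefore near the middle of the introns that passed.

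**Figure D3:**
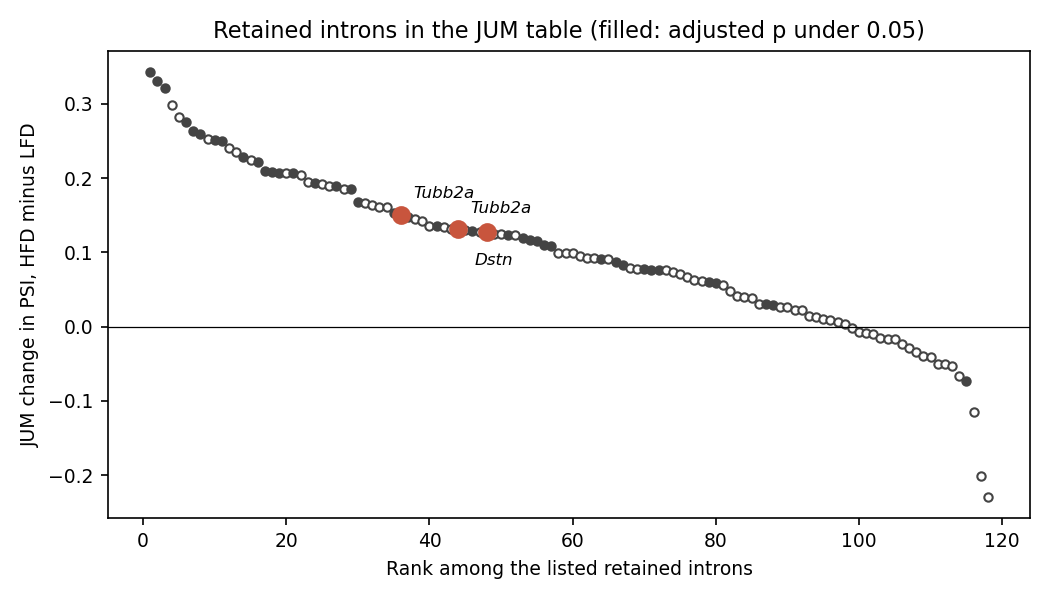
Change in PSI (HFD minus LFD) of 118 retained introns in the JUM table, in order of change, with filled points for an adjusted p under 0.05. Larger red points mark the introns of Tubb2a (0.151 and 0.131) and Dstn (0.128), which sit near the middle of the introns that passed.

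Tpm1, on chromosome 9 from 67022590 to 67049406, minus strand, encodes alpha-tropomyosin. Its exons are named here as is usual for tropomyosins. Hepatocytes used both exons of the internal pair, with 6a ahead of 6b. Read from exon 5, the junction into 6a had a PSI of 0.662 ± 0.0337 for LFD against 0.714 ± 0.0449 for HFD, a difference of 0.0519. From that side exon 6b stood at 0.32 ± 0.0332 and 0.283 ± 0.0448. Read from the exon after the pair, 6a had 0.729 ± 0.0301 on LFD and 0.704 ± 0.0411 on HFD, a difference of -0.0246. From that side 6b stood at 0.256 ± 0.0296 and 0.294 ± 0.041. The sign of the difference was opposite on the 2 sides, and each was smaller than 1 posterior SD of the difference. Skipping of both exons was rare, at 0.0172 on LFD and 0.0127 on HFD.

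The ends of Tpm1 transcripts were made almost wholly from 1 first and 1 last exon. Last exon 9d had a PSI of 0.949 ± 0.0169 for LFD against 0.987 ± 0.00346 for HFD. Last exon 9a, typical of striated muscle, stood at 0.0369 ± 0.0153 on LFD and 0.0126 ± 0.00139 on HFD. The difference for 9d, 0.0378, was 2.19 times its posterior SD but under the minimum of the rule. At the 5′ end, the junction from the internal first exon 1b had 0.968 ± 0.0188 and 0.985 ± 0.00906, and that from exon 2b had 0.0287 and 0.0135. The internal 118-bp exon 67033876 to 67033993 and the 134-bp exon 67035995 to 67036128 were included at 0.987 for the junction that joins them, on both diets. The short tropomyosin forms with exons 1b and 9d thus led on both diets.

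Tpm3, on chromosome 3 from 90072649 to 90100902, plus strand, encodes gamma-tropomyosin and used the pair less evenly. Read from exon 5, the junction into 6a had a PSI of 0.859 ± 0.0207 for LFD against 0.91 ± 0.0208 for HFD, a difference of 0.0507. Exon 6b stood at 0.0395 ± 0.011 and 0.014 ± 0.00604 from that side. Read from the exon after the pair, 6a had 0.919 ± 0.0167 and 0.945 ± 0.0167, and 6b had 0.0603 ± 0.0149 and 0.0424 ± 0.0147. On HFD, 6a was higher from both sides, by 0.0507 and 0.026, and 6b was lower from both, with differences of -0.0255 and -0.0179. The 6b difference from the exon 5 side, -2.03 posterior SDs, was the widest of the 4 on that scale. The entry for a retained intron after exon 5 stood at 0.102 ± 0.0181 and 0.078 ± 0.0196, and its difference of -0.0238 enters the share of 6a in that LSV. The 79-bp exon 9a, 90091013 to 90091091, was nearly absent, at 0.0248 and 0.027, and the junction to 9d stood at 0.974 and 0.972. The first exon of the short forms was at 0.987 on both diets.

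Set side by side, exon 6a led exon 6b in both tropomyosin genes, on both diets and from both sides. Its PSI ran from 0.662 to 0.729 in Tpm1 and from 0.859 to 0.945 in Tpm3, and these ranges did not overlap. Tpm4, on chromosome 8 from 72134975 to 72153142, had an LSV on HFD alone, at the entry to the exon 72138588 to 72138721. There the junction from 72135453 held 0.982 ± 0.0122 and that from 72135049 held 0.0185 ± 0.0122, so the diets could not be compared.

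**Figure D4:**
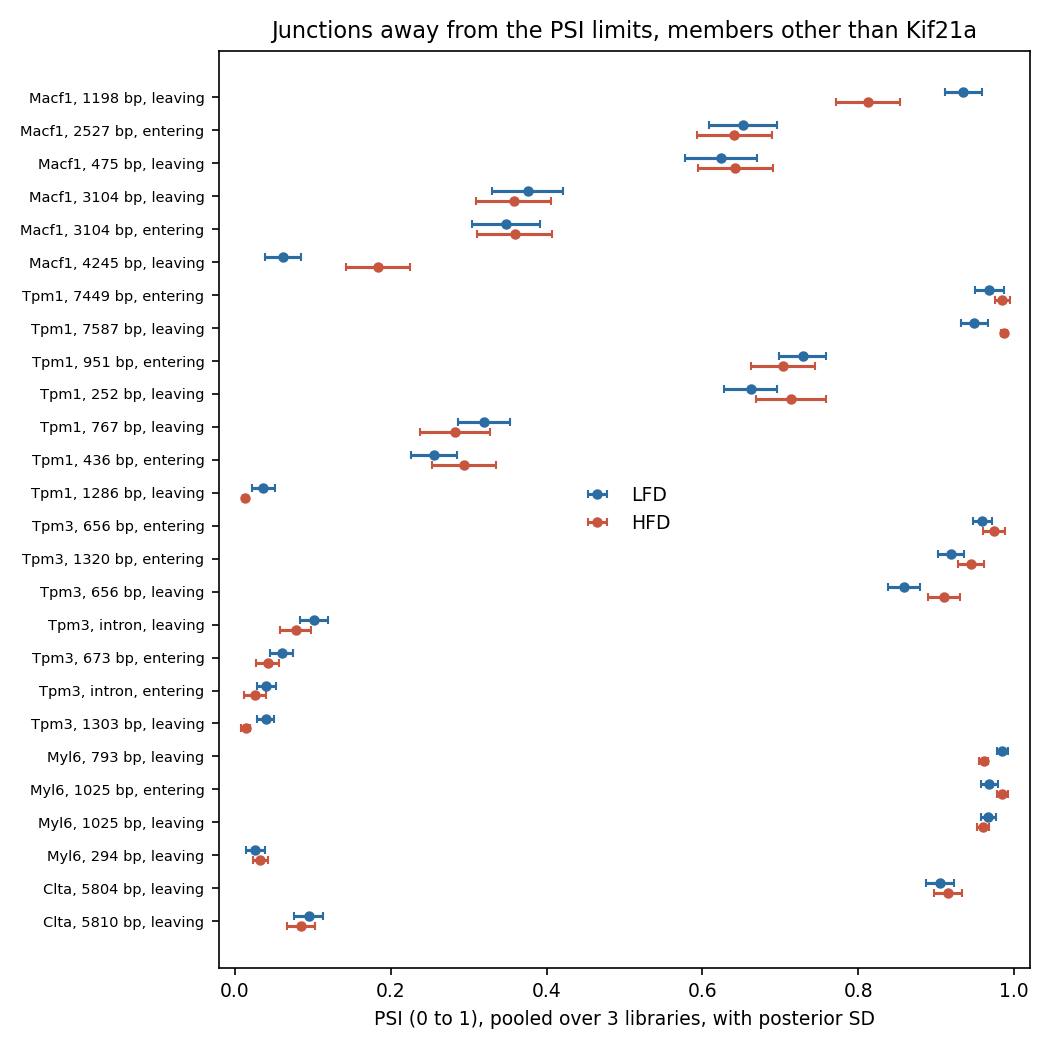
PSI with posterior SD on LFD (blue) and HFD (red), each pooled over 3 libraries, for junctions with a PSI between 0.03 and 0.97 on at least 1 diet, in genes other than Kif21a. Labels give the gene, the distance the junction spans and whether it leaves or enters the reference exon. The bars of the diets overlap at the Tpm1 pair and the Macf1 102-bp exon. They stand apart at the Macf1 18-bp exon (0.935 and 0.812) and, by less, at Tpm3 6a (0.859 and 0.91) and 6b (0.0395 and 0.014) read from exon 5, at Tpm1 9d (0.949 and 0.987) and 9a (0.0369 and 0.0126), and at the 793-bp Myl6 junction (0.985 and 0.961).

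Myl6, on chromosome 10 from 128490860 to 128494145, minus strand, encodes the essential light chain of nonmuscle and smooth muscle myosin II. Its 45-bp exon, an alternative exon near the end of the coding sequence, was nearly absent. The junction into it from the upstream exon had a PSI of 0.0264 ± 0.0124 for LFD against 0.033 ± 0.00981 for HFD, and its junction to the last exon 0.0138 and 0.0125. Skipping stood at 0.967 and 0.96 from the upstream side. A 58-bp exon, 128491290 to 128491347, was at 0.0125 on both diets at its upstream end. The largest difference in the gene, -0.024, lay at the junction from the exon 128493539 to 128493566 into the 144-bp exon, at 0.985 ± 0.00687 on LFD and 0.961 ± 0.0057 on HFD. It was -2.69 posterior SDs of the difference, while in its other LSV the same junction differed by -0.0104, or -0.846 SDs. A shorter, 108-bp form of the 144-bp exon stood at 0.0125 and 0.0213 in that LSV. All 8 LSVs of Myl6 had the same leading junction on both diets.

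Clta, on chromosome 4 from 44004452 to 44032846, plus strand, encodes clathrin light chain A. Its 54-bp and 36-bp exons each had a PSI of 0.0125 on both diets from both sides, the lowest value the PSI tables hold. The junction that skips both stood at 0.987. Clta had another choice, between alternative 5′ splice sites in the exon 44012262 to 44013008. The junction from the inner site, 5810 bp long, stood at 0.0947 ± 0.0184 on LFD and 0.0852 ± 0.018 on HFD, and the one from the outer site, 5804 bp long, at 0.905 and 0.915. The difference of 0.00951 was 0.37 of its posterior SD and was the largest in the gene.

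Cltb, on chromosome 13 from 54592401 to 54611344, minus strand, encodes clathrin light chain B. Its 54-bp exon also had a PSI of 0.0125 on both diets from both sides, and the skipping junction stood at 0.987. The largest difference in Cltb was 2.11e-05. Both light chain genes were thus spliced to the form without the inserts on each diet, within what the PSI tables can list.

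The label of the set as alternative exons held for part of it. Kif21a, Macf1, Tpm1, Tpm3, Myl6, Clta and Cltb had annotated alternative exons quantified on both diets. Dstn had an unannotated one at the lowest PSI, Dstn and Tubb2a were listed by JUM for retained introns, and Tpm4 had 1 LSV, on HFD alone. By the largest absolute PSI difference, Kif21a (0.271) came first, before Macf1 (0.123), Tpm1 (0.0519), Tpm3 (0.0507), Myl6 (0.024) and Clta (0.00951). The largest differences of Tpm1 and Tpm3, neighbours in that order, did not differ from each other beyond their posterior SDs.

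The other genes of these systems were given by a list of 189 actin, myosin, spectrin, tubulin, kinesin and clathrin genes, of which 94 had an LSV for both diets. The PSI rule was passed by 2 of the 94, Mylk and Ppp1r12c, against the 2.31% of all genes given above. The median over genes of the largest absolute difference was 0.0284 in the list, 0.0373 in the 8 genes and 0.031 over all genes. By system, 0 of 33 actin, 2 of 11 myosin, 0 of 14 tubulin, 0 of 11 kinesin and dynein, 0 of 3 spectrin and plakin and 0 of 22 clathrin genes passed.

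Mylk encodes myosin light chain kinase. Its junction 34815602 to 34860564 on chromosome 16 had a PSI of 0.694 ± 0.0437 for LFD against 0.942 ± 0.0261 for HFD. The authors' deposited table of dPSI gave 0.696 and 0.939, and Mylk was the only gene of the list in it. JUM gave a Mylk event of alternative 3′ splice sites a change of -0.228 (adjusted p = 0.18, the authors' deposited table). That event was not matched to a junction, so its sign cannot be set against the PSI difference above. Ppp1r12c, a targeting subunit of myosin phosphatase, chose between 3′ splice sites whose junctions span 155 and 152 bp. The longer one stood at 0.7 ± 0.0471 on LFD and 0.901 ± 0.0358 on HFD. Of 7 JUM events in the list, 1 passed the adjusted p. It was an intron of Myl12a, a regulatory light chain of myosin II, higher on HFD by 0.129 (adjusted p = 0.014, the authors' deposited table). The PSI tables gave this intron 0.013 ± 0.00361 on LFD and 0.107 ± 0.017 on HFD from 1 side, and 0.0125 and 0.0881 from the other.

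The labelled cell type was checked by counting markers with an LSV, since no level was available. All 8 hepatocyte markers had an LSV, as did 1 of 5 markers each for bile duct (Spp1), macrophage (Clec4f) and endothelial cells (Nrp1), and 0 of 5 for stellate cells. A gene without an alternative junction has no LSV at any level, so these counts do not measure other cells, and their part in the results was not tested. No gene overlaps the 10 on the same strand in GENCODE M21, while Kif21a, Tpm4 and Macf1 have overlapping genes on the other strand.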

How the data were processed

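Hepatocyte mRNA libraries, 3 on LFD and 3 on HFD by their titles, were compared, and the members and gene lists were chosen with earlier results of these data known. Per the submitters' processing notes, FastQC, STAR and mm10 were used, with no version stated. PSI and its posterior variance, pooled per diet, and the dPSI table were deposited by the authors from voila, the viewer of MAJIQ, per the file headers. The JUM table, per the file headers, lists events with a p-value under 0.05 and their adjusted p-values. NC in its title stands for the starting chow in the labels' protocols, but the column of changes names HFD and LFD, and the column was followed. Values in all the authors' tables were used as deposited.

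LSVs were matched between diets by identifier, and the PSI rule (a difference of 0.2 outside the 95% normal interval) was tested on simulated data. The simulated reads held no variation between animals or libraries, so that test cannot show how the rule behaves under such variation. All 10 genes are named, each with its LSV of largest difference and its cassette or mutually exclusive exons. Listed genes are named where they passed the PSI rule or stood in the authors' tables past their threshold. Exons and sequences came from GENCODE M21 on mm10, and JUM ends were matched within 2 bp. Python 3.11.15, numpy 2.4.6 and matplotlib 3.10.9 were used. No library holds values of its own, so precision comes from posterior variances alone. Alternatives were another minimum difference, another multiple of the variances, a limit on posterior SD, spliced junctions only, and other thresholds for the authors' tables.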

Additional observations from a re-analysis of the deposited data

How the results depend on the processing

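No paired analysis was possible because all values are pooled per diet, and for the same reason leaving out a library could not be run. Of 25 alternatives computed, 18 gave a count within 1.5 times or a PSI difference within the 95% normal interval of the one reported. Another 7 gave a value outside that. A reversed direction was found in 0, but it could be scored only for the Kif21a skipping junction. The opposite signs of Tpm1 6a read from either side were not among the alternatives. With a minimum PSI difference of 0.1, the 10 genes had 4 junctions (in place of 2) and 2 LSVs (in place of 1) past the rule, all genes had 1953 junctions (in place of 284) and 1123 LSVs (in place of 168), and 13 genes of the list of 189 passed (in place of 2). These counts follow from the lower minimum itself. The Kif21a skipping junction differed by 0.271 in 1 LSV and by 0.0499 in its other LSV, and the cause was not tested. Inside its interval, which is wide, the JUM change of the exon put it at 0.163 in the authors' deposited table, and the Tpm3 junction into 6a moved from 0.0507 to 0.0143 in its other LSV. The comparison of exon ends, added after the data were seen, counted 6 exons of intermediate inclusion in place of 10 when the exon and skipping junctions had to hold 0.8 of each LSV in place of 0.5. The counts for the 10 genes at a multiple of 3, at a posterior SD under 0.05 and with spliced junctions only were those reported, and 3 of their 4 JUM events passed an adjusted p of 0.01. The limit of 0.95 on the listed probability could not change the count of dPSI LSVs, since the authors' deposited table gives every Kif21a junction a probability of 1, also where the change is near 0. HFD values rest on fewer effective reads, which limits what can be read from the Kif21a and Macf1 exons.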

Other observations

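Some LSVs of the 10 genes were quantified on 1 diet only. Of 48 LSVs on LFD, 6 (12.5%) were missing on HFD, 3 in Kif21a and 3 in Macf1, against 16.6% of all LSVs on LFD. Of 44 on HFD, 2 (4.55%) were missing on LFD, 1 each in Tpm4 and Macf1, against 1.94%. In Kif21a on LFD, the 108-bp exon was entered from the exon 90956295 to 90956509 at 0.889 ± 0.027 and from a nearer site at 90954324 at 0.111 ± 0.027. On LFD the 129-bp exon of Kif21a joined the downstream exon at 0.972 ± 0.0211 and the 39-bp exon at 0.0283 ± 0.0211. In Macf1, the exon 123440550 to 123440791 was reached from a site at 123441603 at 0.844 ± 0.0434 and from 123444835 at 0.156 ± 0.0434 on LFD. Another LFD entry of Macf1, from 123407438 into the exon 123401751 to 123401912, stood at 0.0993 ± 0.0328. On HFD alone, the Macf1 exon 123385455 to 123385686 was reached from 123386549 at 0.984 ± 0.0115.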
